A study of Mus musculus with 6 samples.

Results

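The data describe 10 noncoding genes in mouse fibroblasts undergoing reprogramming to induced pluripotent stem cells. They are the nuclear long noncoding RNA genes *Malat1* and *Neat1*, the snoRNA host genes *Gas5*, *Snhg1*, *Snhg3*, *Snhg5*, *Snhg8* and *Snhg12*, the microRNA host gene *Mir17hg* and the imprinted antisense gene *Kcnq1ot1*. The 10 genes were taken by their GENCODE symbol from the 54331 genes listed, and 8 of them were among the 15382 genes whose mean reached 1 TPM (a level relative to transcript length and to the total of the well), which were tested. RNA was compared at 10 days post infection (10 dpi) between OSKA + 4OHT and OSKA − 4OHT cells, with 3 wells in each group, and single values are given below for replicates 1, 2 and 3 in this order. The cells of both groups were embryonic fibroblasts from male E13.5 embryos of a mixed C57BL/6, DBA/2 and ICR background that carry an Oct4-EGFP transgene. Fibroblasts from several embryos had been mixed. Both groups were transduced with retroviruses for OCT4, SOX2 and KLF4 (OSK) and for AKT-MER, a myristoylated AKT joined to a modified estrogen receptor, which 4-hydroxytamoxifen (4OHT) switches on. From 3 dpi the wells received 1 µM 4OHT or its vehicle, ethanol. The 6 wells held cells of the same transduction, so p-values measure the spread between wells, which may be technical. In a bulk sample, fewer cells of a type and less RNA per cell cannot be told apart.

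*Malat1* RNA gathers in nuclear speckles, and *Neat1* RNA is the scaffold of paraspeckles, nuclear bodies that hold RNA-binding proteins. The host genes carry small nucleolar RNAs (snoRNAs) in their introns. Box C/D snoRNAs guide methylation of ribosomal RNA, and box H/ACA snoRNAs guide its pseudouridylation. *Gas5* and several of the other hosts start with a terminal oligopyrimidine (TOP) tract, which ties a transcript to growth signals, and their spliced transcripts are broken down by nonsense-mediated decay when ribosomes read their short reading frames. *Mir17hg* is the precursor of a cluster of 6 microRNAs, the miR-17 cluster, which MYC and E2F proteins drive. *Kcnq1ot1* is transcribed from the paternal allele, against the direction of *Kcnq1*, and silences neighbouring genes on that allele.

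The sequences that these genes are known for are shown first, since they name the products that the host transcripts carry. The mature microRNAs of *Mir17hg* (RefSeq, GRCm38.p6, plus strand) follow in genome order, with the seed, bases 2 to 8, in capitals.
miR-17-5p, chr14:115043684-115043706: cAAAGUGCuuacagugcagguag
miR-18a-5p, chr14:115043867-115043889: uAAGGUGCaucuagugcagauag
miR-19a-3p, chr14:115044048-115044070: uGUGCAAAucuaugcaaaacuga
miR-20a-5p, chr14:115044183-115044205: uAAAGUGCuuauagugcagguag
miR-19b-3p, chr14:115044358-115044380: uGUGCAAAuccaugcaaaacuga
miR-92a-3p, chr14:115044476-115044496: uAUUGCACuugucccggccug
The 6 microRNAs held 4 seeds. The seed AAAGUGC was shared by miR-17-5p and miR-20a-5p, and the seed GUGCAAA by miR-19a-3p and miR-19b-3p. The seeds of miR-18a-5p and miR-92a-3p each occurred once.

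Box C/D snoRNAs of *Gas5* and *Snhg5*, whose host transcripts had the lowest unadjusted p-values, are shown from the GENCODE M21 transcripts (GRCm38), with box C (TGATGA) and the last box D (CTGA) in capitals.
Snord47 of *Gas5*, chr1:161038082-161038158, plus strand: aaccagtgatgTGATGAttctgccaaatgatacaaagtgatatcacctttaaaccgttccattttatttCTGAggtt
Snord50a of *Snhg5*, chr9:88521529-88521600, minus strand: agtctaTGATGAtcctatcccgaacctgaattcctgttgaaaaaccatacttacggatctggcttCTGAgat
Snord50b of *Snhg5*, chr9:88521797-88521868, minus strand: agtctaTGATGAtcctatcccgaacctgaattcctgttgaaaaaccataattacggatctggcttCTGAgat
Snord50a and Snord50b were identical at 71 of 72 bases, and the substitution from the first to the second is C50A, counted from 1 at the 5′ end. Of the 28 snoRNA entries annotated inside the 6 host genes on the host's strand, 16 held both boxes, a TGATGA starting within the first 20 bases and a CTGA starting within the last 12. They were 7 of 10 entries in *Gas5*, 6 of 8 in *Snhg1*, 2 of 2 in *Snhg5* and 1 of 5 in *Snhg12*. The 2 entries of *Snhg3*, *Snora73a* and *Snora73b*, and *Snora24* of *Snhg8* are box H/ACA snoRNAs and held no such pair.

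Annotated start sites of the snoRNA hosts (RefSeq, GRCm38.p6) are shown because a TOP tract is a run of C and T at the start of a transcript. Each window runs from 10 bases before the start to 30 bases from it, on the gene's own strand, with the longest run of C and T between 5 bases before the start and 20 after it in capitals.
*Gas5*, chr1:161035156-161035195: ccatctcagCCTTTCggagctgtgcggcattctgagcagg
*Snhg1*, chr19:8723477-8723516: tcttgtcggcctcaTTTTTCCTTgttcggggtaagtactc
*Snhg3*, chr4:132353657-132353696: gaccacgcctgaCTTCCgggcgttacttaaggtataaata
*Snhg5*, chr9:88522868-88522907: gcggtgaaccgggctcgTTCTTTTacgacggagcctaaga
*Snhg8*, chr3:123508307-123508346: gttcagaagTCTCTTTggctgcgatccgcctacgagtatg
*Snhg12*, chr4:132308668-132308707: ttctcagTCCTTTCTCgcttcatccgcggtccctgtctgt
The hosts have 7 annotated windows, with a further start of *Gas5* upstream whose longest run had 3 bases. A run of at least 6 was found in 5 of the 7 and in 22.3% of all 32851 RefSeq start windows of this length. The run had 9 bases in *Snhg1* and *Snhg12*, 7 in *Snhg5* and *Snhg8*, 6 in the *Gas5* window shown and 5 in *Snhg3*. A run of C and T is a description of the window, not a mapped start site.

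None of the 10 genes was called, which required an adjusted p-value under 0.05 and a fold change above 2. Among all 15382 genes tested by limma-trend with Benjamini-Hochberg adjustment, 441 (2.87%) were called higher in the OSKA + 4OHT group and 210 (1.37%) lower. By the adjusted p-value alone, 542 genes (3.52%) were higher and 303 (1.97%) lower, again with 0 members by this test. At an unadjusted p-value under 0.05 stood 3 of the 8 tested members (*Gas5*, *Snhg5* and *Snhg3*), beside 21.3% of the whole table. Among the 8 tested members, groups without overlap were seen for *Snhg3*, which was higher, and for *Gas5* and *Snhg5*, which were lower. The untested *Kcnq1ot1* was also lower without overlap. Of all genes tested, this was so for 18.1% in the higher and 10.0% in the lower direction. The adjusted p-values of the 8 members ran from 0.0821 for *Snhg5* to 0.999 for *Snhg8*. The median log2 fold change of the 8 was -0.10, beside 0.14 for all tested genes, so a member with no difference in TPM lies slightly below the middle of the table. An exact permutation test of 3 wells against 3 gives no 2-sided p-value under 0.1. On simulated data with 200 changed genes among 15381, the fit recovered 33% of them, so a gene that was not called is not shown to be unchanged.

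**Figure D1:**
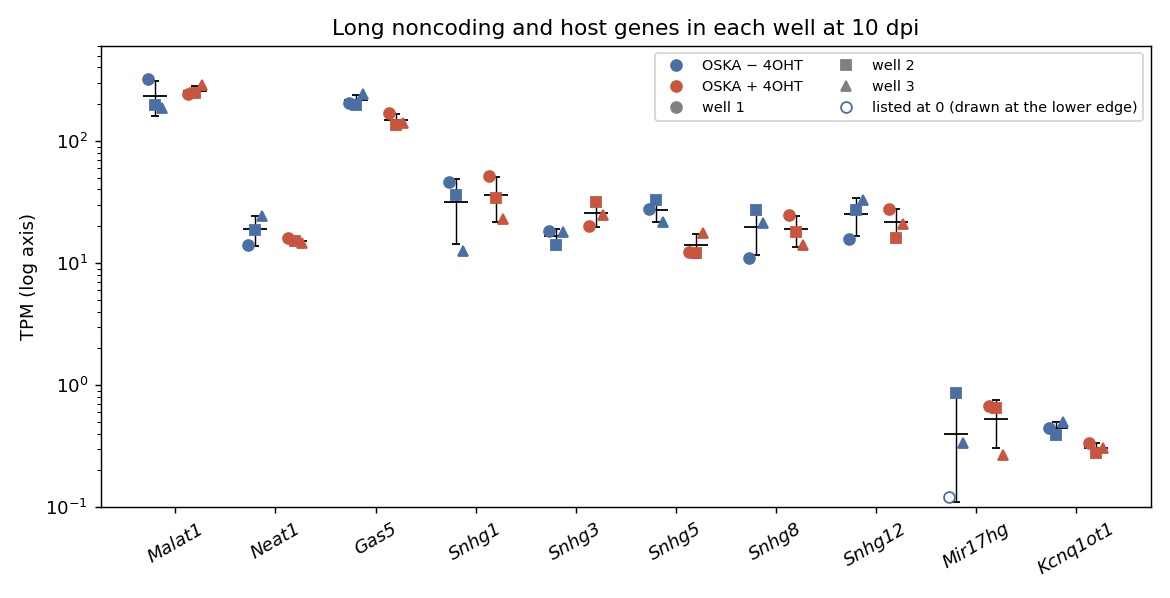
Level of each gene in every well, in TPM on a log axis, for the OSKA − 4OHT group (blue) and the OSKA + 4OHT group (red); symbols mark the well number, black lines the mean ± SD of 3 wells (the lower bar of *Mir17hg* in the OSKA − 4OHT group is cut at the edge). *Malat1* and *Gas5* lie above 100 TPM in all 6 wells, *Neat1* and the *Snhg* genes between 10.9 and 52.0, and *Mir17hg* and *Kcnq1ot1* below 1.

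On the TPM scale the levels spanned a wide range. *Malat1*, with a mean of 246.1 TPM over the 6 wells, was above 96.7% of the tested genes, and *Gas5*, with 181.4 TPM, above 95.3%. *Malat1* was the higher of these 2 in 4 of 6 wells, so their order lies within the spread. *Gas5* was above *Snhg1* in all 6 wells. The means of *Snhg1* (34.0 TPM), *Snhg12* (23.5 TPM), *Snhg3* (21.1 TPM), *Snhg5* (20.7 TPM), *Snhg8* (19.3 TPM) and *Neat1* (17.1 TPM) followed, and the ranges of all neighbours in this order overlapped. *Neat1* was above *Mir17hg* in all 6 wells. *Mir17hg* (0.462 TPM) and *Kcnq1ot1* (0.373 TPM) were each the higher of the 2 in 3 wells.

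The TPM of each well adds up to 1000000 and keeps no depth. An approximate relative depth, read from the steps of TPM times effective transcript length, was 0.488, 1 and 0.537 without 4OHT and 0.889, 0.911 and 0.793 with it. The steps were only moderately sharp, with 36.9% to 40.3% of low values close to a whole read, where an even spread would give 30%. By the same steps and the median annotated transcript length of each gene, *Gas5* rested on about 65.0 to 127 reads per well, *Snhg5* on 10.9 to 32.9, *Snhg12* on 8.72 to 31.2, *Snhg1* on 4.06 to 27.9, *Snhg8* on 2.54 to 12.9 and *Snhg3* on 2.84 to 9.21. With the longest transcript these become about 396 to 775 reads for *Gas5*, 18.2 to 54.8 for *Snhg5* and 5.02 to 16.3 for *Snhg3*.

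*Malat1* (chr19:5795690-5802672, minus strand, GRCm38 with GENCODE M21 as for all genes below) measured 319, 196 and 185 TPM in the wells without 4OHT and 242, 247 and 287 TPM in those with it. The OSKA − 4OHT group held both the highest and the lowest well, and the groups overlapped. Means were 233.5 ± 74.4 and 258.8 ± 24.8 TPM (SD, n = 3 each), which gives a log2 fold change of 0.19 (standard error 0.226, 95% interval -0.36 to 0.73, adjusted p = 0.671 by limma-trend). The interval leaves out a 2-fold difference in either direction. Leaving out 1 well gave log2 fold changes from 0.045 to 0.44, and scaling the wells to the same median gave 0.02. The longest *Malat1* transcript shares stretches of at least 95% identity with 62 other genes, of at most 151 bases among 6983.

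*Neat1* (chr19:5824708-5845478, minus strand) lies 22036 bases from *Malat1*. It measured 14.1, 18.5 and 24.3 TPM in the wells without 4OHT and 16.1, 15.0 and 14.6 TPM in those with it. The OSKA + 4OHT wells lay close together and within the range of the OSKA − 4OHT wells. The log2 fold change was -0.28 (standard error 0.236, 95% interval -0.84 to 0.29, adjusted p = 0.557 by limma-trend), or -0.42 relative to the median of all genes. Without OSKA − 4OHT replicate 3 it was -0.08, and without OSKA − 4OHT replicate 1 it was -0.47. The values do not separate the short from the long *Neat1* isoform, and the libraries were selected for polyA tails, which the long isoform lacks. Of 10 tested genes for paraspeckle proteins, 0 passed an adjusted p-value under 0.05 in either direction (smallest 0.0520), and their median log2 fold change was 0.28, beside 0.14 for all genes. *Frmd8*, 4224 bases from *Neat1*, had a log2 fold change of 0.24 (adjusted p = 0.804).

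*Gas5* (chr1:161034422-161038539, plus strand) measured 205, 196 and 242 TPM in the wells without 4OHT and 170, 135 and 140 TPM in those with it. Every OSKA + 4OHT well lay below every OSKA − 4OHT well. The mean was 214.5 ± 24.1 TPM without and 148.2 ± 18.6 TPM with 4OHT (SD, n = 3 each), 0.691 of the OSKA − 4OHT level. The log2 fold change was -0.53 (standard error 0.146, 95% interval -0.89 to -0.18), and by limma-trend its adjusted p was 0.0962 (0.00959 unadjusted), so it did not pass the test. Relative to the median of all genes the difference was -0.68. *Gas5* did pass an adjusted p-value of 0.05 after scaling by the trimmed mean of M-values (log2 fold change -0.66, adjusted p = 0.0473) and after scaling the wells to the same median (-0.71, adjusted p = 0.0390), but not after quantile normalization (adjusted p = 0.0610) or in any of 6 fits that left out 1 well (0.131 to 0.260).

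*Zbtb37*, which overlaps the first bases of the gene on the other strand but shares no exon bases with it, measured 2.80 ± 1.81 and 1.73 ± 0.366 TPM (SD, n = 3 each). *Rc3h1*, 59444 bases before the gene, measured 16.4, 13.4 and 14.7 TPM without and 11.0, 9.43 and 7.12 TPM with 4OHT. Its groups did not overlap either, with a log2 fold change of -0.68 and an adjusted p of 0.152.

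*Snhg5* (chr9:88521050-88522929, minus strand) had the largest difference of the 8 tested members. It measured 27.5, 33.0 and 21.8 TPM in the wells without 4OHT and 12.3, 12.2 and 17.7 TPM in those with it. The groups did not overlap, and the highest OSKA + 4OHT well was replicate 3. The means were 27.4 ± 5.62 and 14.1 ± 3.17 TPM (SD, n = 3 each), or 0.513 of the OSKA − 4OHT level. The log2 fold change was -0.94 (standard error 0.243, 95% interval -1.52 to -0.35), and by limma-trend its adjusted p was 0.0821 (0.00726 unadjusted). Over 18 alternative settings it lay between -1.11 and -0.80, with adjusted p-values from 0.0673 to 0.228. The neighbouring genes *Syncrip* and *Zfp949* had log2 fold changes of -0.12 and -0.24 (adjusted p = 0.780 and 0.705).

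*Snhg3* (chr4:132348014-132353686, minus strand) was the 1 tested member whose OSKA + 4OHT wells all lay above the OSKA − 4OHT wells. It measured 18.2, 14.2 and 17.9 TPM in the wells without 4OHT and 20.2, 31.6 and 24.6 TPM in those with it. The gap between the groups was narrow, from 18.2 to 20.2 TPM. The log2 fold change was 0.58 (standard error 0.225, 95% interval 0.03 to 1.12), and by limma-trend its adjusted p was 0.212 (0.0408 unadjusted). Relative to the median of all genes the difference was 0.43. Over 18 alternatives the log2 fold change lay between 0.41 and 0.73, with adjusted p-values from 0.180 to 0.446, and from 0.314 to 0.369 under the 3 other scalings. The host shares 135 of its exon bases, 13.7%, with *Rcc1* on the same strand, the gene of the chromatin-bound exchange factor for the GTPase RAN, so Salmon could have split reads between them. *Rcc1* measured 7.76, 13.7 and 6.21 TPM without and 14.6, 13.2 and 10.4 TPM with 4OHT, with a log2 fold change of 0.50 (adjusted p = 0.444) and overlapping groups. A noncoding gene on the other strand, *Gm17300*, shares 705 exon bases with *Snhg3*, 71.5% of its exon bases, and without strand their reads could not be told apart. *Gm17300* was listed at 0 in 5 wells and at 0.408 TPM in OSKA + 4OHT replicate 2. *Phactr4*, 2237 bases from *Snhg3*, measured 16.7 ± 6.28 and 40.9 ± 19.3 TPM (SD, n = 3 each), with groups that did not overlap and an adjusted p of 0.142. On the other side, *Trnau1ap*, 18476 bases from *Snhg3*, was lower in every OSKA + 4OHT well. Its log2 fold change was -0.44 (adjusted p = 0.389 by limma-trend).

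*Snhg1* (chr19:8723475-8726443, plus strand) had the widest ratio between wells of 1 group among the 8 tested members. It measured 46.4, 36.1 and 12.5 TPM in the wells without 4OHT and 52.0, 34.0 and 22.9 TPM in those with it. The highest OSKA − 4OHT well was 3.70 times the lowest, and the groups overlapped. The log2 fold change was 0.31 (standard error 0.538, 95% interval -0.99 to 1.60, adjusted p = 0.782 by limma-trend), and it was -0.25 without OSKA − 4OHT replicate 3. Only 106 bases separate *Snhg1* from *Slc3a2*, the heavy chain of amino acid transporters, which runs the other way. *Slc3a2* measured 126, 114 and 120 TPM without and 161, 199 and 193 TPM with 4OHT. Its groups did not overlap, with a log2 fold change of 0.61 (standard error 0.130) and an adjusted p of 0.0512, just outside the threshold. The difference between these 2 genes was not tested. *Wdr74*, 9384 bases on the other side, had a log2 fold change of 0.20 (adjusted p = 0.801).

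*Snhg8* (chr3:123507552-123508404, minus strand) measured 10.9, 27.0 and 21.1 TPM in the wells without 4OHT and 24.7, 17.9 and 14.2 TPM in those with it. The groups overlapped, with means of 19.7 ± 8.14 and 18.9 ± 5.33 TPM (SD, n = 3 each). The log2 fold change was -0.0016, and its 95% interval, -0.91 to 0.91, nearly reaches a 2-fold difference on either side. Its neighbours *Prss12* and *Ndst3* had log2 fold changes of -1.07 and -0.43 (adjusted p = 0.340 and 0.574), and the groups of *Ndst3* did not overlap.

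*Snhg12* (chr4:132308623-132311024, plus strand) measured 15.7, 27.4 and 32.9 TPM in the wells without 4OHT and 27.9, 16.0 and 20.8 TPM in those with it. The groups overlapped, with a log2 fold change of -0.20 (standard error 0.338, 95% interval -1.01 to 0.62, adjusted p = 0.779 by limma-trend). *Trnau1ap*, 739 bases downstream on the other strand, measured 31.9 ± 10.6 and 22.7 ± 2.73 TPM (SD, n = 3 each), lower in every OSKA + 4OHT well, with an adjusted p of 0.389. *Taf12*, 12857 bases upstream, measured 17.0 ± 7.21 and 26.9 ± 1.19 TPM (SD, n = 3 each), higher in every OSKA + 4OHT well. Its log2 fold change was 0.75 (adjusted p = 0.288 by limma-trend). Among the 19 tested neighbours of all members, groups without overlap numbered 3 higher and 3 lower, beside 18.1% and 10.0% of all genes tested. Of these 19 neighbours, 0 passed an adjusted p-value under 0.05. Summed over the 5 *Snhg* genes, the wells held 106 to 138 TPM without and 100.3 to 137 TPM with 4OHT, so the sums overlapped while single genes lay on either side. With *Gas5* added, the sums were 324, 334 and 348 TPM without and 307, 247 and 240 TPM with 4OHT. These did not overlap, and in every well *Gas5* held more of the sum than the 5 *Snhg* genes together.

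**Figure D2:**
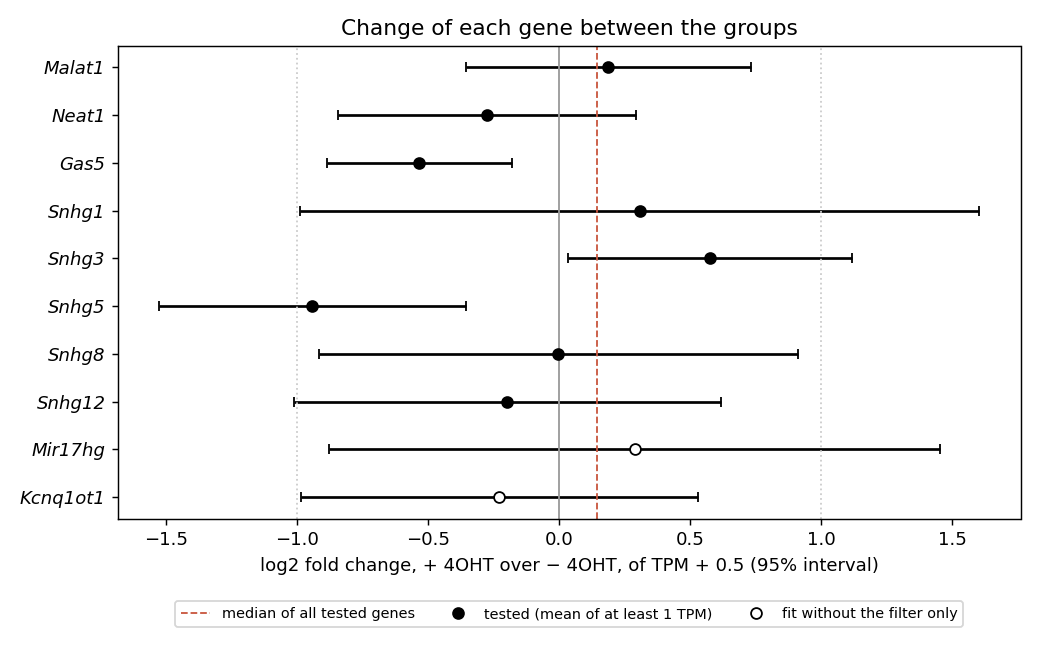
Log2 fold change of each gene, OSKA + 4OHT over OSKA − 4OHT, of TPM + 0.5, with its 95% interval; the dashed line is the median of all tested genes, dotted lines mark a 2-fold difference, and open symbols come from the fit without the filter on low genes. The intervals of *Gas5* and *Snhg5* lie below 0 and that of *Snhg3* above it, although none passed the adjusted test.

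The snoRNAs themselves were hardly seen by these polyA libraries. Of the 28 snoRNA entries inside the hosts, which are 60 to 205 bases long, 23 were listed at 0 in all 6 wells. The other 5 were above 0 in at most 4 wells, at up to 327 TPM, a scale on which a short transcript gets a high value from few reads. They were 1 entry of *Gas5*, 2 of *Snhg1* and both entries of *Snhg3*. The values above therefore describe the host transcripts and not the snoRNAs, although the longest annotated transcripts of some hosts hold snoRNA bases. The longest *Snhg3* transcript shares 159 bases with *Snora73a*, 27.4% of the *Snhg3* transcript, so Salmon could have split reads between them. *Snord80* and *Snora16a* are each annotated by 2 entries.

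Of 14 other noncoding snoRNA hosts listed, 11 were matched and 10 tested, 0 passed an adjusted p-value under 0.05 (smallest 0.170), and 5 had a positive and 5 a negative log2 fold change, with a median of 0.05. Of 15 protein-coding snoRNA hosts, 0 passed (smallest 0.0889), with a median of 0.01. Of 10 genes for snoRNP proteins, which bind and stabilize the snoRNAs, 0 passed (smallest 0.194), with a median of -0.0087. Of 12 genes of nonsense-mediated decay, 0 passed (smallest 0.243), with a median of 0.26. Groups without overlap, lower and higher, numbered 1 and 0 of the 10 other noncoding hosts, 2 and 3 of the 15 protein-coding hosts, 0 and 4 of the 10 snoRNP genes and 0 and 2 of the 12 decay genes, beside 10.0% and 18.1% of all genes tested. For the 10 paraspeckle genes they numbered 0 and 3. The lists share some genes, among them the protein-coding hosts with both the snoRNP genes and the TOP genes below. Their counts are therefore not from separate sets.

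Translation factors and other genes that do not encode ribosomal proteins are known to share the TOP tract with *Gas5*. Of the 16 such genes tested, 1 passed an adjusted p-value under 0.05. This was *Eef1a1*, the elongation factor that brings aminoacyl-tRNA to the ribosome, which fell from 9074, 9232 and 9620 TPM to 7604, 7709 and 7153 TPM, a log2 fold change of -0.31 (adjusted p = 0.0481 by limma-trend). Its value is uncertain, since 1390 of its 1794 bases are 96.9% identical to *Gm6170* and reads could be split between them. The groups did not overlap in 6 of the 16 genes in the lower and 3 in the higher direction, beside 10.0% and 18.1% of all genes tested, and the median log2 fold change was -0.24, beside 0.14 for all genes. The log2 fold changes were negative in 10 and positive in 6 of the 16 genes. Whether *Gas5* and these genes moved together was not tested.

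**Figure D3:**
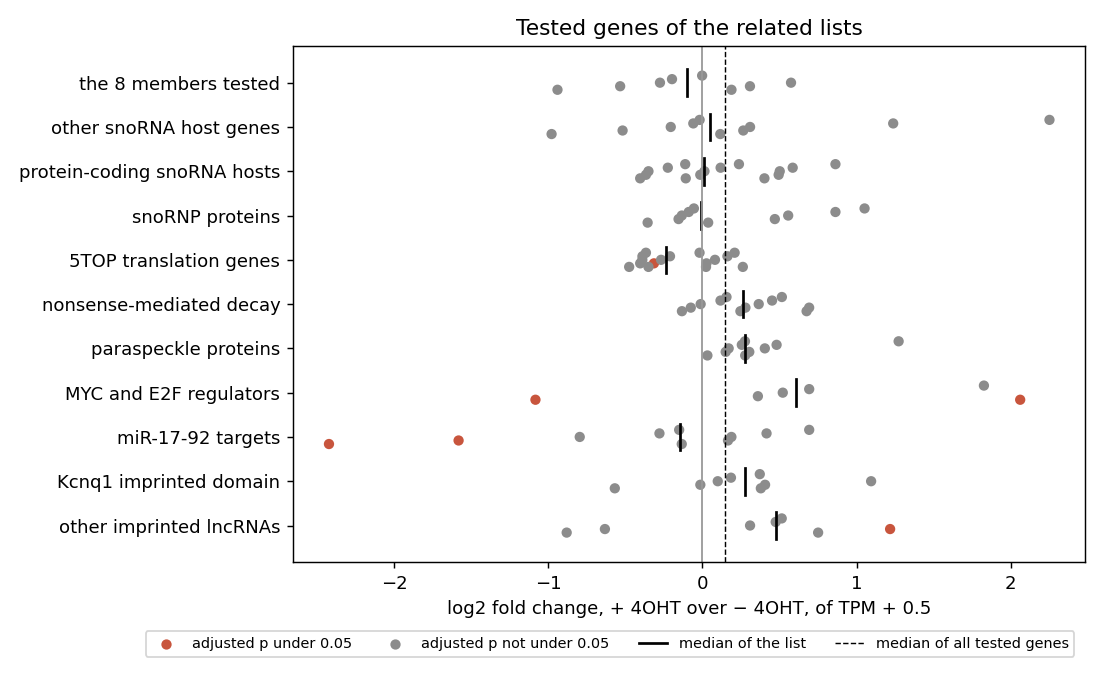
Log2 fold changes, OSKA + 4OHT over OSKA − 4OHT, of the 8 tested members and of the tested genes of 10 related lists, 1 point per gene; red points passed an adjusted p-value of 0.05, short bars are list medians and the dashed line is the median of all tested genes. The TOP genes range from -0.47 to 0.26 with a median of -0.24, and none of the snoRNA hosts is red.

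*Mir17hg* (chr14:115042879-115046727, plus strand) was listed at 0, 0.854 and 0.334 TPM in the wells without 4OHT and at 0.668, 0.646 and 0.269 TPM in those with it. The groups overlapped, and the highest value corresponds to about 4.80 reads, so a small rise or a fall was not detectable at this depth. In the fit without the filter its log2 fold change was 0.29 (95% interval -0.88 to 1.45, adjusted p = 0.767). All 6 microRNA hairpins were listed at 0 in every well, in libraries made from polyadenylated RNA. The nearest tested genes lie over 1 Mb away on either side. *Gpc6* had a log2 fold change of 0.20 (adjusted p = 0.589), and the pseudogene *Gm5209* was listed above 0 in 1 well only. Of 6 MYC and E2F genes, *Mycn* rose from 1.23, 0.551 and 0.688 TPM to 4.51, 4.73 and 5.51 TPM (log2 fold change 2.06, adjusted p = 0.0338), and *Myc* fell from 41.2, 36.7 and 41.5 TPM to 17.8, 19.3 and 18.4 TPM (-1.08, adjusted p = 0.0144). Of 10 known targets of the cluster, *Thbs1*, an inhibitor of vessel growth, fell from 2097 ± 229 without 4OHT to 389.8 ± 26.4 TPM with it (SD, n = 3 each), a log2 difference of -2.42 (adjusted p = 0.00298), and *Ccn2*, a matrix-associated growth factor, fell from 745.4 ± 80.8 without 4OHT to 248.4 ± 21.6 with it (-1.58, adjusted p = 0.00367). The other 8 targets did not pass the test. By the adjusted p-value alone, 1.97% of all genes tested were lower. The log2 fold changes were positive in 4 and negative in 6 of the 10 targets. Groups without overlap numbered 1 in the higher and 2 in the lower direction, beside 18.1% and 10.0% of all genes tested. Of 4 tested genes that host other microRNAs, 0 passed (smallest adjusted p 0.0718).

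*Kcnq1ot1* (chr7:143203458-143296549, minus strand) is annotated as a single transcript of 93092 bases, so a value below 1 TPM still corresponds to about 34.4 to 61.7 reads per well. It measured 0.443, 0.388 and 0.495 TPM in the wells without 4OHT and 0.333, 0.277 and 0.303 TPM in those with it. Every OSKA + 4OHT well lay below every OSKA − 4OHT well, with means of 0.442 ± 0.0533 and 0.304 ± 0.0284 TPM (SD, n = 3 each), 0.688 of the OSKA − 4OHT level. The exact permutation p was 0.1, the smallest this design allows. The mean was under the filter, and in the fit without it the log2 fold change was -0.23 (95% interval -0.98 to 0.53, adjusted p = 0.712), a scale on which a pseudocount of 0.5 exceeds the level itself. With a pseudocount of 0.1 it was -0.42 (adjusted p = 0.776). The gene shares 121 exon bases with *Kcnq1* on the other strand, and whether the counting used strand is not given in the sources used here. *Kcnq1* was listed at 0 in 5 wells and at 0.327 TPM in OSKA + 4OHT replicate 2.

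Of the 12 genes of the imprinted domain, 8 were tested and 0 passed an adjusted p-value under 0.05 (smallest 0.0669). Their median log2 fold change was 0.28, with 6 positive and 2 negative, and 3 of the 8 were higher without overlap and 0 lower, beside 18.1% and 10.0% of all genes tested. *Cdkn1c*, a cell cycle inhibitor expressed from the maternal allele, measured 22.1, 19.1 and 25.4 TPM without and 26.0, 20.3 and 25.2 TPM with 4OHT, with overlapping groups and a log2 fold change of 0.10 (95% interval -0.36 to 0.56). *Tssc4*, the nearest tested gene on the other side, had a log2 fold change of 0.41 (adjusted p = 0.552). Among 7 tested noncoding RNAs of other imprinted domains, *Meg3* rose from 22.8, 29.5 and 22.7 TPM to 61.1, 66.2 and 49.3 TPM (log2 fold change 1.22, adjusted p = 0.0215), and the other 6 did not pass. Of 11 tested further long noncoding RNAs, 0 passed (smallest 0.0580).

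**Figure D4:**
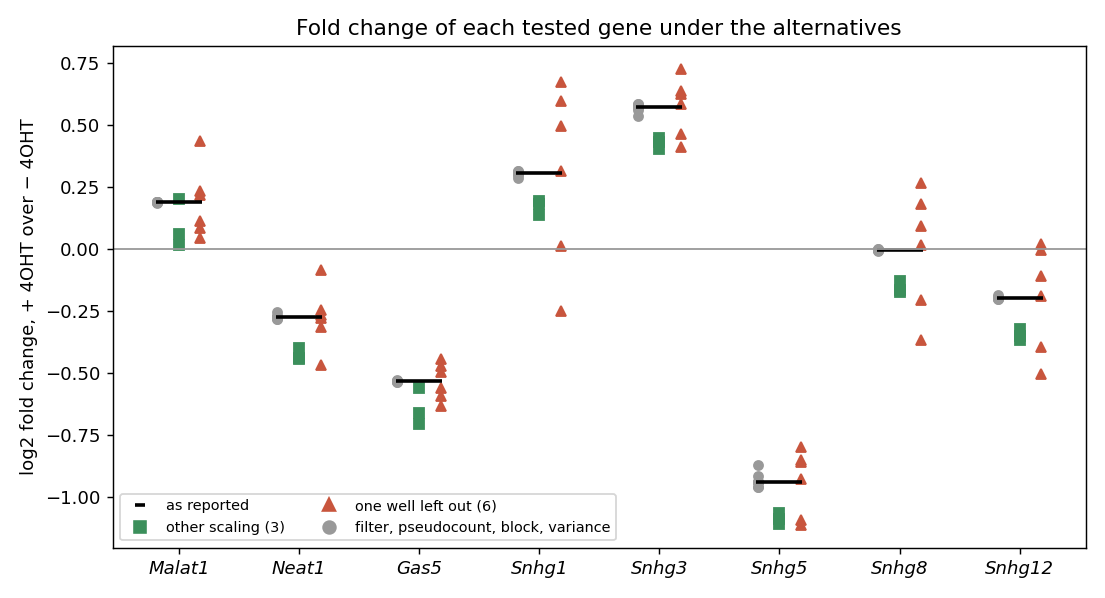
Log2 fold change of the 8 tested members as reported (black bars) and under 3 other scalings (green squares), with 1 well left out (red triangles) and with another filter, pseudocount, replicate block or variance model (grey circles). *Malat1*, *Neat1*, *Gas5*, *Snhg5* and *Snhg3* keep their sign under all 18, and *Snhg1*, *Snhg8* and *Snhg12* cross 0 when single wells are left out.

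Markers of other cell states differed between the groups, and their part in the differences above was not tested. The summed level of 10 pluripotent cell markers was 14.5 to 17.9 TPM without and 66.1 to 72.9 TPM with 4OHT, and 4 of the 8 tested rose, among them *Dppa5a*, listed at 0 in all OSKA − 4OHT wells and at 16.4, 25.7 and 18.5 TPM with 4OHT, and *Nanog*, listed at 0 in 2 OSKA − 4OHT wells. The 10 fibroblast markers summed to 6613 to 8441 TPM without and 5043 to 6453 TPM with 4OHT. Of these, *Col1a2* and *Pdgfrb* fell (log2 fold changes -0.88 and -1.65), whereas *Col3a1* and *Lum* rose (1.23 and 2.37). The 10 macrophage markers summed to 153 to 176 TPM without and 92.5 to 112 TPM with 4OHT, and 1 of them, *Lyz2*, fell (-0.88). *Lyz2* held the largest part of these sums, with means of 95.2 TPM without and 51.8 TPM with 4OHT. Of the 10, 3 had a positive and 7 a negative log2 fold change, and groups without overlap numbered 0 higher and 2 lower. Both *Dppa5a* (95.9% identical to *Pigp* over 417 bases) and *Lyz2* (95.8% identical to *Lyz1* over 1264 bases) share sequence with another gene, so their values are uncertain. The 2 tested endothelial markers did not pass the test, and the 6 listed summed to 21.8 to 28.9 and 28.1 to 37.6 TPM. Of 12 tested mitochondrially encoded mRNAs, 0 passed (smallest adjusted p 0.451), with sums of 149254 to 189311 and 134147 to 203318 TPM.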

How the data were processed

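Single-end 50-bp reads of stranded polyA libraries from 6 wells were trimmed by the authors with Trim Galore and quantified with Salmon, and what they deposited is 1 TPM value for each gene in each well, adding up to 1000000 per well. Versions and annotation release are not given in the sources used here. Deposited columns of the authors' own comparison (a log2 fold change, a log2 average level, an F statistic and a p-value) were not used. Symbols and coordinates came from GENCODE M21 (GRCm38), which named 54097 of 54331 genes, and sequences from RefSeq (GRCm38.p6) or GENCODE M21. Lists were matched by symbol.

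Differences were tested with limma-trend (limma 3.58.1, R 4.3.3) on log2(TPM + 0.5) over genes whose mean reached 1 TPM, without a block, with Benjamini-Hochberg adjustment over all 15382. Fold changes on this scale understate those of low genes. The study's count model was not used, since TPM are not counts. On simulated data the fit made 5 false calls among 15381 genes with 200 changed and 0 with nothing changed. Approximate depth came from genes with 1 annotated transcript, assuming fragments of 250 bases. On simulated data with 17139 genes the step was found within 0.227%, but these data had whole-read steps of the fitted size built in. This checks the search alone and does not show how accurate the depths and read numbers are. Similar transcripts were searched with BLAST 2.17.0, using Python 3.11.15.

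The members and lists were chosen with earlier results of these data known. Named are all members, the nearest tested gene on each side and genes overlapping a member, and in each list up to 2 genes with the largest rise and up to 2 with the largest fall at an adjusted p-value under 0.05. Results for some genes under this rule are not reported here. The alternatives were other filters, pseudocounts, scalings and variance models, the replicate number as a block and leaving out each well.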

Additional observations from a re-analysis of the deposited data

How the results depend on the processing

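No member was called under any of the 18 alternatives. At an adjusted p-value under 0.05, 1 member (*Gas5*) was lower under the trimmed mean of M-values and 1 (*Gas5*) under scaling to the same median, in place of 0. These scalings moved the median log2 fold change of all genes from 0.14 to 0.03 and -0.02, and the share of called genes that were higher from 67.7% to 54.7% and 50.2%, with 365 genes higher and 302 lower, and 331 higher and 329 lower. Under each of the 3 other scalings, 2 members in place of 3 had an unadjusted p-value under 0.05. Leaving out 1 well gave 111 to 303 genes called higher and 63 to 127 lower. Whether the replicate numbers pair the wells cannot be settled from these values. After the mean of each group was subtracted from every gene, same-numbered wells correlated only weakly (0.0235, 0.0341 and 0.0837). Each OSKA − 4OHT well nevertheless correlated best with its own number. With the replicate number as a block (replicate block), 31 genes were called higher and 16 lower, and no member (smallest adjusted p 0.196).

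Over the 6 fits that left out 1 well, the log2 fold change of *Snhg1* ranged from -0.25 to 0.68, that of *Snhg8* from -0.37 to 0.27 and that of *Snhg12* from -0.50 to 0.020. The signs of *Snhg1* and *Snhg12* turned without OSKA − 4OHT replicate 3. The sign of *Snhg8*, near 0, turned without OSKA − 4OHT replicate 2 (0.27) or 3 (0.09) and without OSKA + 4OHT replicate 2 (0.02) or 3 (0.18). The cause was not tested. The fit without a filter at a pseudocount of 0.1 was added after seeing the data. The few reads of the short *Snhg* genes and of *Mir17hg*, and the 2 shallower OSKA − 4OHT libraries, limit what could be detected.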
